A study of Bubalus bubalis with 6 samples.

Results

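The small leucine-rich proteoglycans are secreted matrix proteins built from leucine-rich repeats, most of which carry sugar chains. The 10 genes described here, DCN, BGN, LUM, FMOD, ASPN, OGN, PRELP, OMD, ECM2 and PODN, were chosen by name and taken as the entries with these symbols among the 24616 genes listed in the deposited gene table. All 10 symbols were listed, and 9 of them had enough counts to be tested. The tenth, OMD, had 8 counts in total.

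The study sequenced polyadenylated RNA of muscle stem cells (MuSCs) from water buffalo (Bubalus bubalis), which were primary cells isolated from fetal longissimus muscle. GM samples were proliferating cells kept in growth medium with fetal bovine serum, and DM samples were cells moved at near confluence to differentiation medium with horse serum, in which they fuse into myotubes. There were 3 GM and 3 DM samples, the labels name no genetic change in either, and the effects of medium, serum, cell density and time in culture cannot be told apart. The labels do not say whether the samples of a group came from separate cultures or animals, so the p-values measure the spread between these samples, which may be technical.

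In tissue these proteins sit on collagen fibrils, where they set fibril diameter and spacing, and several of them bind growth factors and cell surface receptors. In muscle they belong to the matrix around the fibres, and decorin and biglycan are known to bind TGF-β family ligands, decorin also myostatin, which restrains muscle growth. They are usually sorted into classes by sequence: DCN, BGN and ASPN in class I with ECM2 as a relative, LUM, FMOD, PRELP, OMD and KERA in class II, OGN, EPYC and OPTC in class III, and PODN and PODNL1 in the most recently defined class.

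The summed gene counts per sample ran from 36657735 to 40305237 for GM and from 35615864 to 38177614 for DM. Levels are given as CPM, the counts per 1000000 of the sample's summed gene counts after scaling by edgeR's TMM factors, and fold changes are DM over GM. A gene was called when its log2 fold change was above 1 in size and its adjusted p-value (edgeR quasi-likelihood test, Benjamini-Hochberg over 15576 genes) was under 0.05. Of the genes tested, 15.0% were called higher and 10.3% lower in DM samples, and the median log2 fold change was 0.03. DM3 stood apart from the other DM samples, with a Pearson's r across genes of 0.982 with each of them against 0.991 between DM1 and DM2, and DM3 is named beside the results below where it sets a value.

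All 9 tested proteoglycan genes had log2 fold changes above 0, as did 51.3% of all tested genes, and 6 of them were called higher: DCN, LUM, ASPN, OGN, ECM2 and PODN. None was called lower. BGN, FMOD and PRELP had adjusted p-values under 0.05 with log2 fold changes under 1. The median log2 fold change of the 9 genes was 1.76, and the single values ran from 0.86 for BGN to 6.62 for PODN. For each of the 9, every DM value lay above every GM value. Over all tested genes, 34.5% were higher in DM samples with no overlap (68.8% had no overlap in either direction) and 31.6% were higher by adjusted p alone. In bulk RNA, a change in the number of cells that make a transcript and a change in the amount per cell cannot be told apart.

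**Figure D1:**
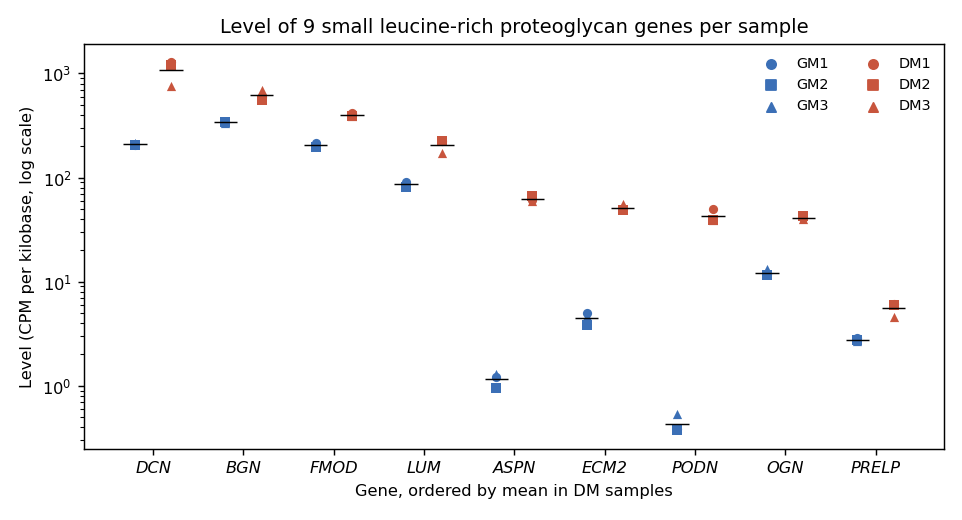
Level in CPM per kilobase of gene length (log axis) of the 9 tested proteoglycan genes in each of the 3 GM and 3 DM samples, one point per sample, with the group mean as a bar. The DM points lie above the GM points for every gene, with the widest gaps for PODN and ASPN and the lowest DM point of DCN belonging to DM3.

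Among the class I genes, DCN encodes decorin, which binds collagen fibrils and sequesters TGF-β. DCN (ENSBTAG00000003505, chromosome 5, 21080013 to 21119087, minus strand, as the gene table lists it without naming a genome build) stood at 438, 437 and 465 CPM in GM1, GM2 and GM3 and at 2734, 2584 and 1614 CPM in DM1, DM2 and DM3. All DM samples were above all GM samples, with DM3 well below the other DM samples, at 0.607 of their mean. The group means were 447 ± 15.7 CPM in GM and 2311 ± 608 CPM in DM (SD, n = 3 each). The log2 fold change was 2.37 (SE 0.16, edgeR adjusted p = 5.21e-07), a fold of 5.17, and 2.58 without DM3. By level per kilobase DCN moved from place 412 to place 76 among the listed genes, and its share of all gene counts went from 0.0462% to 0.223%.

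BGN encodes biglycan, the closest relative of decorin, which binds collagen and Toll-like receptors. BGN (ENSBTAG00000005250, chromosome X, 39639906 to 39653687, plus strand) stood at 726, 736 and 720 CPM in GM samples and at 1275, 1201 and 1493 CPM in DM samples. Here DM3 was the highest DM sample, at 1.21 times the mean of the other DM samples. BGN had a log2 fold change of 0.86 (SE 0.08, edgeR adjusted p = 4.69e-06), a fold of 1.82, which was under the fold threshold. It stayed under it when any single sample was left out, with values from 0.78 to 0.94.

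ASPN encodes asporin, which has a run of aspartates, binds collagen and TGF-β and usually carries no glycosaminoglycan chain. ASPN (ENSBTAG00000011847, chromosome 8, 85499333 to 85524670, minus strand) had 118, 94 and 117 counts in GM samples and 4832, 5777 and 5222 counts in DM samples, which are 2.85, 2.26 and 3.09 CPM against 143, 158 and 141 CPM. The groups were far apart and each was tight. The lowest DM sample was 45.7 times the highest GM sample. This gave a log2 fold change of 5.76 (SE 0.11, edgeR adjusted p = 3.67e-10), a fold of 54.0.

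ECM2 encodes an extracellular matrix protein with leucine-rich repeats like those of decorin. ECM2 (ENSBTAG00000024081, chromosome 8, 85540501 to 85579683, minus strand) stood at 11.0, 8.39 and 10.2 CPM in GM samples and at 108, 108 and 121 CPM in DM samples, without overlap. ECM2 had a log2 fold change of 3.51 (SE 0.10, edgeR adjusted p = 2.62e-09), a fold of 11.4.

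Among the class II genes, LUM encodes lumican, a keratan sulfate proteoglycan that regulates collagen fibril assembly, best known from the cornea. LUM (ENSBTAG00000001745, chromosome 5, 21037443 to 21044658, minus strand) stood at 165, 148 and 162 CPM in GM samples and at 403, 407 and 311 CPM in DM samples. All DM samples were above the GM samples and DM3 was the lowest of them, as for DCN. The log2 fold change was 1.24 (SE 0.10, edgeR adjusted p = 1.65e-06), a fold of 2.36, and 1.36 without DM3.

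FMOD encodes fibromodulin, which shares a collagen binding site with lumican and is abundant in tendon. FMOD (ENSBTAG00000014912, chromosome 16, 925081 to 935131, plus strand) stood at 567, 518 and 569 CPM in GM samples and at 1113, 1037 and 1030 CPM in DM samples, so the DM samples lay close together and clear of the GM samples. FMOD had a log2 fold change of 0.94 (SE 0.06, edgeR adjusted p = 4.92e-07), a fold of 1.92. It was not called, and leaving out single samples gave 0.90 to 0.97.

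PRELP encodes a protein that binds collagen and heparan sulfate and links the matrix to basement membranes. PRELP (ENSBTAG00000017834, chromosome 16, 1041923 to 1055957, plus strand) stood at 10.6, 10.3 and 10.1 CPM in GM samples and at 22.9, 22.1 and 17.0 CPM in DM samples. The groups did not overlap, and DM3 was the lowest DM sample. Its log2 fold change of 0.99996 (SE 0.12, edgeR adjusted p = 3.53e-05) lay just under the fold threshold. Without DM3 the log2 fold change was 1.13 and PRELP was called, and DESeq2 also called it, so that 7 of the 9 genes were called in both cases.

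OMD, the gene of osteomodulin from mineralising tissue, had 1, 1 and 2 counts in GM samples and 0, 4 and 0 counts in DM samples (ENSBTAG00000011836, chromosome 8, 85477017 to 85479293, minus strand). It was too sparse to be tested, and no difference was detectable at this depth.

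OGN, of class III, encodes osteoglycin (mimecan), a small matrix protein also secreted by muscle and bone. OGN (ENSBTAG00000011824, chromosome 8, 85453019 to 85468721, plus strand) stood at 26.6, 26.2 and 29.8 CPM in GM samples and at 92.5, 97.0 and 90.1 CPM in DM samples. Both groups were tight and did not overlap. OGN had a log2 fold change of 1.76 (SE 0.07, edgeR adjusted p = 1.89e-08), a fold of 3.38.

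PODN encodes podocan, a collagen-binding member of the family. PODN (ENSBTAG00000012514, chromosome 3, 93728705 to 93751305, minus strand) had 36, 35 and 46 counts in GM samples and 3775, 3196 and 3276 counts in DM samples. These are 0.868, 0.841 and 1.21 CPM against 112, 87.3 and 88.5 CPM, and DM3 lay between the other DM samples. The log2 fold change was 6.62 (SE 0.16, edgeR adjusted p = 8.21e-10), a fold of 98.6. Of the 8981 genes that averaged 10 CPM or more, 17 had a larger log2 fold change than PODN and 24 a larger one than ASPN.

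**Figure D2:**
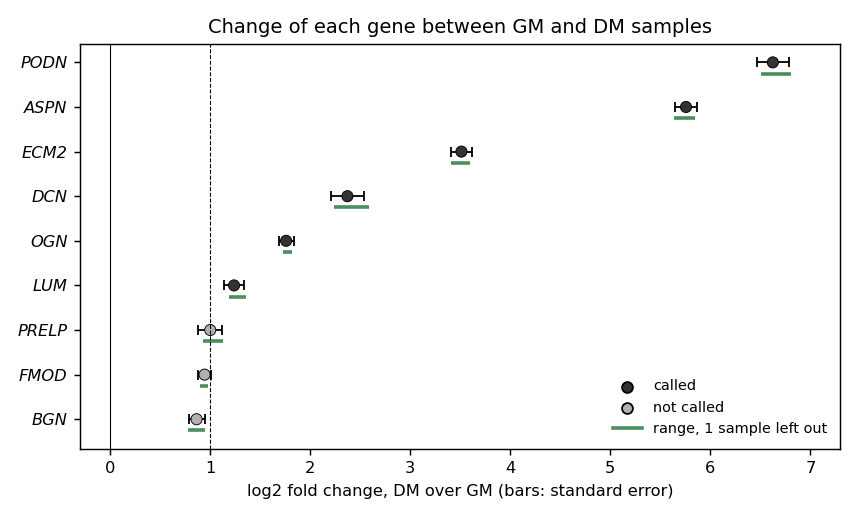
Log2 fold change (DM over GM) of the 9 tested proteoglycan genes with its standard error, the range of values when single samples are left out, and a dashed line at the fold threshold of 1. PODN (6.62), ASPN (5.76) and ECM2 (3.51) lie farthest to the right, and PRELP (0.99996), FMOD (0.94) and BGN (0.86) lie at or under the line.

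PODN, ASPN and ECM2, which had the largest folds, were among the 4 tested members with the lowest levels per kilobase in GM samples, and PRELP was the other. Compared per kilobase of gene length, the order in GM samples was BGN at 340 ± 3.90 CPM per kilobase, DCN at 209 ± 7.32, FMOD at 207 ± 10.9, LUM at 87.6 ± 4.94, OGN at 12.1 ± 0.859, ECM2 at 4.51 ± 0.606, PRELP at 2.78 ± 0.0752, ASPN at 1.16 ± 0.180 and PODN at 0.432 ± 0.0921 (SD, n = 3). DCN and FMOD overlapped between samples and were not separable. In DM samples the order per kilobase was DCN at 1079 ± 284, BGN at 619 ± 71.1, FMOD at 399 ± 17.2, LUM at 206 ± 29.9, ASPN at 62.4 ± 3.87, ECM2 at 51.4 ± 3.34, PODN at 42.6 ± 6.11, OGN at 41.1 ± 1.54 and PRELP at 5.56 ± 0.866. The ranges of ECM2 and PODN and those of PODN and OGN overlapped, and no other neighbours in this order did.

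Summed over the 10 genes, the level per kilobase was 870, 845 and 880 CPM per kilobase in GM samples and 2721, 2588 and 2210 in DM samples, a ratio of means of 2.90. DM3 was the lowest DM sample and lay far above the GM samples, and without it the ratio was 3.07. DCN held 24.1 ± 0.583% of this sum in GM and 42.6 ± 7.32% in DM samples (46.9% in DM1, 46.6% in DM2 and 34.1% in DM3). BGN held 39.4 ± 1.28% in GM samples and 25.1 ± 5.65% in DM samples, where DM3 was highest at 31.6%. FMOD went from 24.0 ± 0.798% to 16.0 ± 1.34%, while ASPN, ECM2 and PODN, each under 1% in GM samples, held 2.50%, 2.08% and 1.70% in DM samples.

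**Figure D3:**
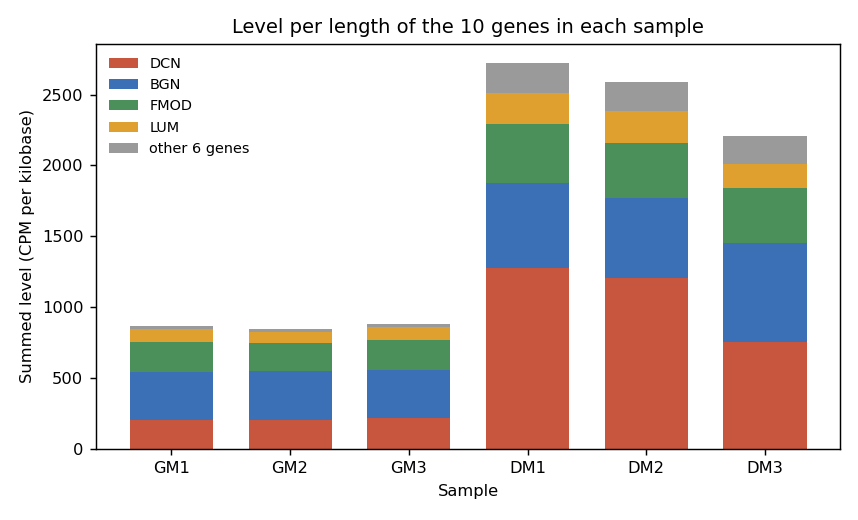
Summed level of the 10 proteoglycan genes in each sample as stacked bars in CPM per kilobase, starting at 0. DCN, BGN, FMOD and LUM have their own segments, and the grey segment is the sum of the other genes. The DM bars are about 2.90 times as tall as the GM bars, and the DCN segment is the largest in every DM sample while the BGN segment is the largest in every GM sample.

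Ratios between close relatives within a sample need no scaling between samples. The BGN to DCN ratio per kilobase was 1.66, 1.69 and 1.55 in GM samples and 0.467, 0.465 and 0.926 in DM samples. BGN was above DCN in every GM sample and below it in every DM sample, with DM3 near equality. The mean log2 ratio was lower by 1.48 in DM samples (exact two-sided permutation p = 0.1, adjusted p = 0.1 over 3 ratios), and the smallest p that 3 against 3 samples allow is 0.1. Without DM3 it was lower by 1.81 and without any other single sample by at least 1.31.

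The ASPN to DCN ratio per kilobase was 0.00589, 0.00468 and 0.00602 in GM samples and 0.0474, 0.0554 and 0.0792 in DM samples, without overlap. Its log2 difference was 3.43 (exact permutation p = 0.1, adjusted p = 0.1). The FMOD to LUM ratio was 2.34, 2.38 and 2.39 in GM samples and 1.88, 1.73 and 2.25 in DM samples, with a log2 difference of -0.28 (exact permutation p = 0.1, adjusted p = 0.1). Of the DM samples DM3 was nearest to the GM samples in this ratio.

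DM3 did not shift all 9 genes alike. It was below both other DM samples for 6 of them (DCN, LUM, FMOD, ASPN, OGN and PRELP), above both for BGN and ECM2, and between them for PODN. The myogenic marker genes summed to 3362, 2996 and 3624 CPM in GM samples and to 7922, 8196 and 10987 CPM in DM samples, so DM3 had the highest sum. Among the DM samples, DM3 was highest for DES, MYH3, MYH8, ACTA1, CKM, TNNC2, TNNT3 and MYLPF. It was lowest for PAX7, MYOD1 and MYOG, and between the others for MYF5 and CDH15. Fibroblast marker genes summed to 1128, 1113 and 1119 CPM for GM and to 2281, 2145 and 1926 CPM for DM, where DM3 was lowest. The single genes were split: PDGFRA stood at 977, 951 and 650 CPM in DM1, DM2 and DM3, but DPT at 285, 273 and 327 CPM. DM3 was also lowest for TWIST2, SCARA5, CLEC3B and MFAP5, highest for TCF7L2 and PI16, and between the others for THY1, FBLN1 and CD34. The part of either marker list in the differences of DM3 was not tested.

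The cultures were checked against fixed marker lists, beside which 15.0% of all tested genes were called higher and 10.3% lower. Of 13 tested myogenic markers, 8 were called higher and 1 lower in DM, and the median log2 fold change was 2.58. The myogenic regulator MYOG rose (log2 fold change 1.66), and MYF5, which marks proliferating myoblasts, fell by 2.70 on the log2 scale. MYOD1, PAX7, CDH15 and DES were not called, with log2 fold changes of 0.90, -0.92, -0.53 and -0.15. PAX7 was present in every sample, at a mean of 18.5 CPM in GM and 9.78 CPM in DM samples. Fibroblasts also make these proteoglycans: 5 of 11 tested fibroblast markers were called higher and 0 lower, and the median log2 fold change was 0.96. The called ones were THY1, CLEC3B, MFAP5, SCARA5 and PI16, with log2 fold changes of 1.55, 1.65, 2.57, 2.71 and 2.87. PDGFRA had 0.58 and was not called. PI16 and CD34 (-0.58, not called) stayed under 1 CPM in both group means. TCF21 had at most 7 counts in any sample and was not tested.

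Markers of other cell types the cultures could hold were also counted, again beside 15.0% higher and 10.3% lower of all tested genes. The summed CPM of tendon markers was 4268 to 4473 in GM samples and 2008, 1864 and 3010 in DM1, DM2 and DM3, of which TNC made up most. Among 6 tested, 2 were called higher (SCX and THBS4) and 1 lower (TNC). SCX had only 4, 1 and 7 counts in GM samples and 27, 12 and 21 in DM samples. THBS4 stood at 70.5, 80.1 and 151 CPM in DM1, DM2 and DM3. Its log2 fold change was 3.18, and 2.78 without DM3. TNC kept its call in 4 of the 6 fits that leave out a sample, with log2 fold changes of -0.92 without DM1 and -0.87 without DM2. Smooth muscle and pericyte markers summed to 193 to 207 CPM in GM and 408 to 469 CPM in DM samples, with 3 of 7 called higher and 0 lower. Bone markers summed to 111 to 120 CPM in GM samples and to 188, 182 and 126 CPM in DM1, DM2 and DM3, with 3 of 7 higher and 1 lower. Cartilage markers summed to 8.15 to 8.23 CPM in GM and 5.36 to 21.6 CPM in DM samples, with 2 of 6 called higher and 2 lower, endothelial markers to 12.1 to 15.0 and 13.7 to 23.5 CPM with 1 of 7 higher and 3 lower, adipocyte markers to 6.94 to 8.34 and 7.27 to 8.84 CPM with 2 of 6 higher and 1 lower, and leukocyte markers to 5.35 to 7.19 and 2.57 to 3.97 CPM with 1 of 5 lower. Of the leukocyte markers, PTPRC, CD3E and C1QA had at most 3 counts in every sample. CD68, the one called lower, averaged 5.29 CPM in GM and 2.59 CPM in DM samples. CSF1R, ITGAM and AIF1 stayed under 1 CPM in both group means. The highest cartilage and endothelial sums were those of DM3, and without it the DM samples stood at 5.48 and 5.36 CPM for cartilage and at 14.3 and 13.7 CPM for endothelial markers. Of the cartilage genes called higher, ACAN (aggrecan) rested on DM3: it stood at 2.84, 3.55 and 20.4 CPM in DM samples against 2.72 to 3.03 CPM in GM samples. Its log2 fold change of 1.62 (edgeR adjusted p = 0.0410) became 0.14 without DM3, and DESeq2 did not call it (adjusted p = 0.0998). How much any of these cells added to the proteoglycan counts was not tested.

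The mRNA table counts the same reads per transcript. It lists 12 transcripts of the 10 genes, of which 11 were tested and 7 called higher, against 15.5% of all 16352 tested mRNAs. FMOD and OGN have a pair of transcripts each, and their counts share reads: for FMOD they make up 97.7% and 92.8% of the gene's count, and for OGN 99.3% and 82.2%. The FMOD transcripts had log2 fold changes of 0.93 and 0.92, and those of OGN 1.74 and 1.71. The transcripts of a pair therefore have no separate values. No listed gene overlaps a member, except a small nucleolar RNA (snoU2_19) inside ECM2 with 1 count in all.

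Most members lie in 3 gene clusters, as the gene table lists them. LUM and DCN span 81645 bases on chromosome 5, OGN, OMD, ASPN and ECM2 span 126665 bases on chromosome 8, and FMOD and PRELP span 130877 bases on chromosome 16, while BGN and PODN lie alone. LUM and DCN had unlike log2 fold changes, 1.24 and 2.37. So did OGN, ASPN and ECM2, at 1.76, 5.76 and 3.51, with OMD lying between OGN and ASPN at 8 counts. FMOD and PRELP had similar ones, 0.94 and 0.99996. Of the 19 other tested genes within 150000 bases of a member, 3 were called higher and 2 lower, and the median log2 fold change was 0.25. The shares over all tested genes were 15.0% higher and 10.3% lower. CHI3L1, a secreted chitinase-like protein upstream of FMOD, had 114, 121 and 125 counts in GM samples and 16493, 15959 and 11993 in DM samples, and its log2 fold change was 7.12 (edgeR adjusted p = 8.58e-10). The others called were SLC1A7 and CPT2 near PODN, higher, and LRP8 near PODN and an unnamed gene beside OGN, lower. The window was chosen after the values were seen.

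**Figure D4:**
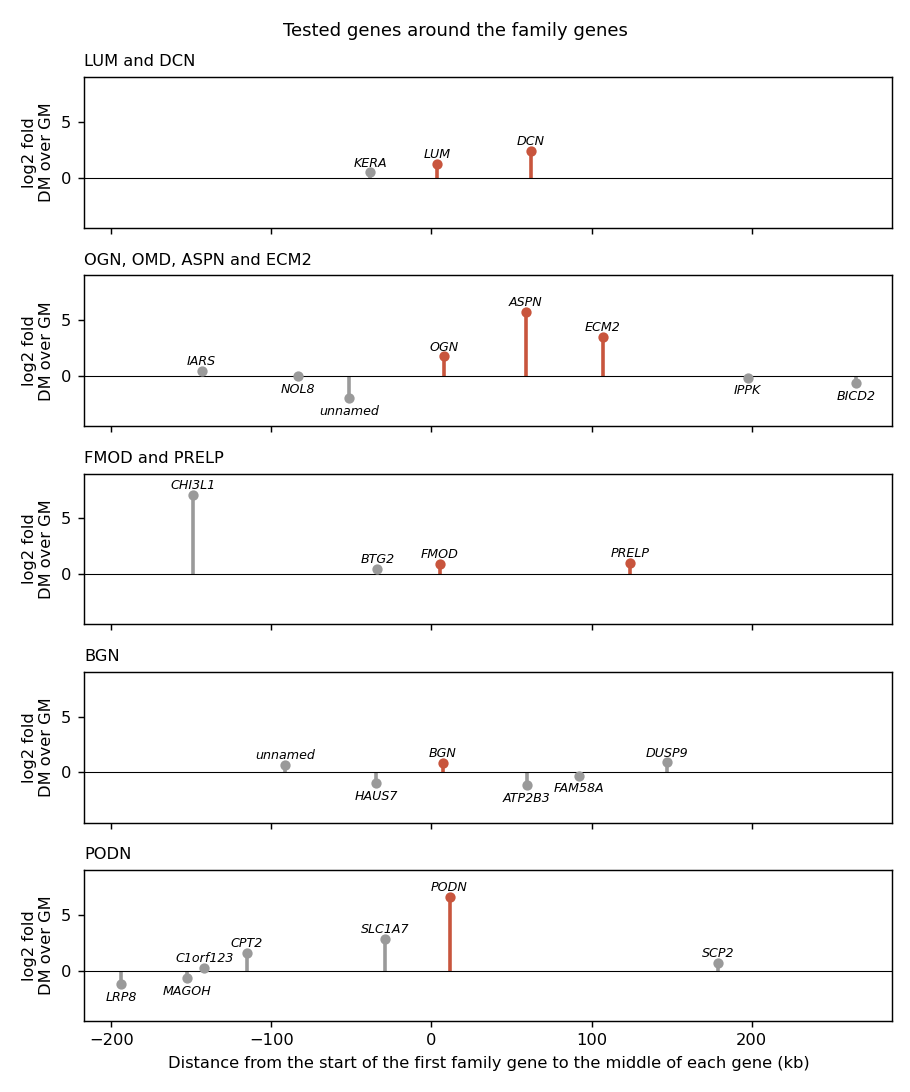
Log2 fold change (DM over GM) of the tested genes within 150000 bases of a proteoglycan gene, by distance in kilobases from the start of the first proteoglycan gene of each cluster, with the proteoglycan genes in red and the others in grey. Apart from CHI3L1 (7.12), the tallest bars belong to PODN and ASPN.

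The wider protein family was taken from a fixed list. Of 8 further small leucine-rich proteoglycan genes, 5 were tested, 1 was called higher and 0 lower (25.3% of all tested genes were called in either direction), and their median log2 fold change was 0.45. PODNL1, the paralog of PODN, rose from 1.33, 1.56 and 2.48 CPM to 11.1, 9.59 and 6.46 CPM, with a log2 fold change of 2.34 (SE 0.27, edgeR adjusted p = 2.27e-05). KERA, the cornea keratan sulfate proteoglycan, had a log2 fold change of 0.45 (edgeR adjusted p = 0.398) and overlapped between groups. CHAD, chondroadherin, had a log2 fold change of 0.79 (edgeR adjusted p = 0.0581). CHADL had one of -0.54 (edgeR adjusted p = 0.563), and TSKU, tsukushi, was lower by 0.60 on the log2 scale (edgeR adjusted p = 0.000194) without reaching the fold threshold. EPYC and NYX had at most 3 counts in every sample, and OPTC was not tested either.

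Decorin and biglycan carry chondroitin or dermatan sulfate chains, so the genes that make these chains were followed next. Of 26 tested, 2 were called higher and 3 lower, and the median log2 fold change was 0.01. Called were 19.2% of them, under the 25.3% of all tested genes. PAPSS2, which makes the sulfate donor, went from a mean of 13.4 ± 1.26 to 39.8 ± 1.73 CPM (log2 fold change 1.57, SE 0.09, edgeR adjusted p = 1.10e-07). CHST12, a chondroitin 4-O-sulfotransferase, went from 34.9 ± 1.56 to 12.2 ± 1.59 CPM (log2 fold change -1.51, SE 0.10, edgeR adjusted p = 3.66e-07). The other called genes were XYLT1, higher, and CHSY3 and CHST14, lower. Of 10 tested genes of keratan sulfate synthesis, the chain type of LUM and FMOD, edgeR called 0 and DESeq2 called 0. By edgeR adjusted p alone 9 passed, 5 higher and 4 lower, without reaching the fold threshold. Over all tested genes, 31.6% were higher by adjusted p alone.

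The collagens that bind these proteins were mostly called higher. Of 14 tested, 9 were called higher and 0 lower (15.0% and 10.3% of all tested genes were), and the median log2 fold change was 1.16. COL5A3, a minor fibrillar chain, went from 25.1 ± 0.703 to 671 ± 79.6 CPM (log2 fold change 4.74, SE 0.10, edgeR adjusted p = 4.16e-10). COL11A2 went from 0.337 ± 0.147 to 1.77 ± 0.250 CPM (log2 fold change 2.38, SE 0.36, edgeR adjusted p = 0.000187). The major chains of the fibrils, COL1A1, COL1A2 and COL3A1, had log2 fold changes of 1.54, 1.13 and 2.24.

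Ligands and receptors that small leucine-rich proteoglycans are known to bind were mixed, 6 of 24 being called higher and 4 lower, and their median log2 fold change was -0.34. Called were 41.7% of them, against 25.3% of all tested genes. Of the called genes, ITGA2 kept its call in 2 and LRP1 in 4 of the 6 fits that leave out a sample. The other called genes kept theirs in all 6, among them P2RX7, with 1, 1 and 3 counts in GM samples and 25, 18 and 60 in DM samples. TLR4, a receptor of biglycan, had 1, 8 and 8 counts in GM and 101, 130 and 247 in DM samples (log2 fold change 4.94, SE 0.52, edgeR adjusted p = 1.15e-05). MET, a receptor of decorin, went from 121 ± 4.90 to 13.6 ± 3.59 CPM (log2 fold change -3.15, SE 0.16, edgeR adjusted p = 5.61e-08). Of the TGF-β ligands, TGFB1 fell by 1.47 on the log2 scale and TGFB2 rose by 1.53, both called, and TGFB3 had a log2 fold change of 0.87 and MSTN of -0.90, neither called.

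Enzymes that process or cut these proteins and the collagens included 5 of 15 called higher and 3 called lower, and their median log2 fold change was 0.60. Called were 53.3% of them, against 25.3% of all tested genes. MMP13, a collagenase, had 11, 5 and 10 counts in GM samples and 148, 175 and 560 in DM samples (log2 fold change 5.21, SE 0.58, edgeR adjusted p = 1.79e-05), and without DM3 the log2 fold change was 4.40. PCOLCE2, an enhancer of procollagen cleavage, had 136, 191 and 139 counts in GM samples and 9, 13 and 24 in DM samples (log2 fold change -3.16, SE 0.33, edgeR adjusted p = 9.98e-06). BMP1, which removes the propeptide of biglycan, had a log2 fold change of 0.59 and was not called.

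Other proteoglycan cores included 6 of 21 called higher and 2 lower, and their median log2 fold change was 0.44. Called were 38.1% of them, against 25.3% of all tested genes. ESM1, endocan, went from 30.7 ± 3.09 to 0.493 ± 0.486 CPM (log2 fold change -5.93, SE 0.35, edgeR adjusted p = 1.65e-07), with DM3 the highest DM sample and a log2 fold change of -7.14 without it. SPOCK2, testican-2, went from 0.933 ± 0.220 to 3.38 ± 0.217 CPM (log2 fold change 1.86, SE 0.24, edgeR adjusted p = 5.82e-05). ACAN, which rested on DM3 as given above, is among the 6 called higher. So is SRGN, serglycin, with 4, 0 and 0 counts in GM samples and 8, 20 and 2 in DM samples, which overlapped and kept its call in 2 of the 6 fits that leave out a sample. VCAN, the large proteoglycan versican, had a log2 fold change of 0.99 and was not called.

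**Figure D5:**
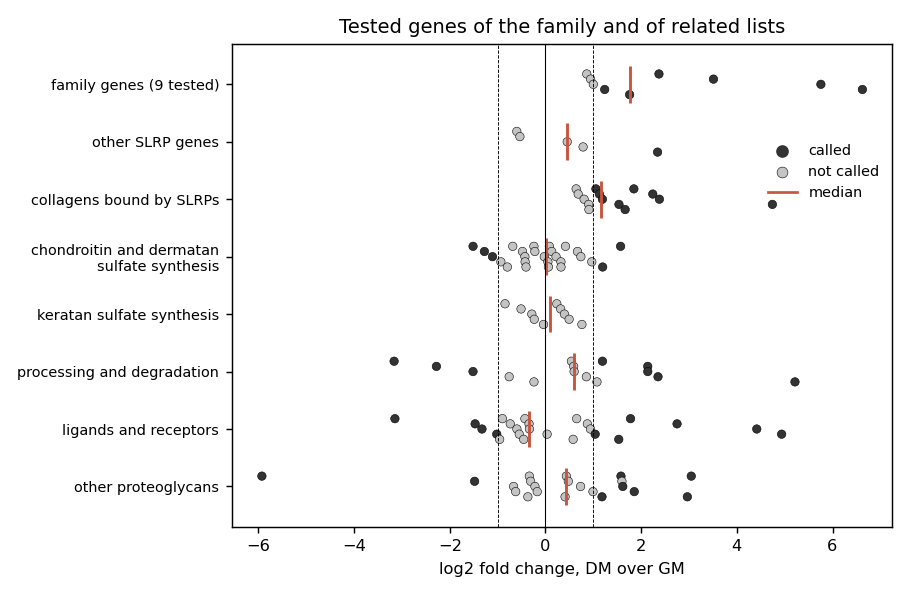
Log2 fold change (DM over GM) of every tested gene of the proteoglycan family and of the lists of related genes, one point per gene, grouped by list (SLRP, small leucine-rich proteoglycan) with the list's median as a red line, and called genes in black. The 9 family genes and the 14 collagens lie above 0, and the other lists spread on both sides of it.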

How the data were processed

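RNA-seq tables of 3 GM and 3 DM samples were analysed. The authors made the raw counts per gene and per mRNA transcript by aligning reads (their methods name HISAT2 and a buffalo assembly, the submitters' processing notes name Bowtie and mouse builds) and deposited them unnormalized, with cattle Ensembl identifiers and no genome build, so positions are printed as listed. The RPKM values deposited beside them are these counts per kilobase, scaled to the summed counts, and were read for checks only. The Length column deposited by the authors gave the kilobases. Deposited lists of differentially expressed features hold the authors' fold changes, p-values and q-values and were not used, nor was the ncRNA table. No sequences of these genes were at hand, and none is printed.

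Counts were tested with edgeR 4.0.16 in R 4.3.3 (glmQLFit, glmQLFTest, limma 3.58.1), TMM normalization and a minimum of 10 counts over the 6 samples. A gene was called at a log2 fold change above 1 in size and an adjusted p-value under 0.05. The standard errors come from the F statistic. Log2 CPM for the likeness of genes used a prior count of 2. Ratios were compared by exact permutation over 20 rearrangements. Tables were handled in Python 3.11.15 with pandas 2.3.3, numpy 2.4.6 and scipy 1.17.1, and plots drawn with matplotlib 3.10.9. Alternatives were DESeq2 1.42.0, other scalings and filters, glmTreat, no minimum fold change, a replicate block and each sample left out. In simulated counts with 200 of 15576 genes changed 4-fold, edgeR recovered 200 and called 0 unchanged genes. For 16352 mRNAs it recovered 200 and called 3 unchanged. The simulation gave all genes the same dispersion, had no outlying sample and changed only genes above a minimum expected count. It therefore checks the code and does not measure the error of the calls in these data.

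The members and lists were chosen with earlier results of these data known. Named in the text are all 10 members, every tested gene of the list of further small leucine-rich proteoglycans, the 2 called genes of largest change with a mean of at least 1 CPM in each other list that is not a marker list, and the 5 genes nearest to DCN among those with a symbol and a mean of at least 10 CPM. Other genes of the lists, the marker genes and the genomic neighbours (within 150000 bases) were named with their values known. All lists were described by counts and medians, without a set test.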

Additional observations from a re-analysis of the deposited data

How the results depend on the processing

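The number of members called, 6, ranged from 6 to 9 over 15 alternatives, and no gene changed direction. PRELP decided the value 7, being called with DESeq2, with DESeq2's size factors, with filterByExpr, with TMM computed without the 50 top genes, without GM replicate 1 and without DM replicate 3. Dropping the minimum fold change gave 9, and also moved the calls in the lists. Further small leucine-rich proteoglycans went from 1 to 2, chondroitin and dermatan sulfate synthesis from 5 to 16 and keratan sulfate synthesis from 0 to 9. Collagens went from 9 to 14 and ligands and receptors from 10 to 21. Processing and degradation went from 8 to 12 and other proteoglycan cores from 8 to 15. With single samples left out, the members called ranged from 6 to 7, transcripts from 7 to 8, and the BGN to DCN difference from -1.81 to -1.31. The labels do not say whether replicate numbers pair the samples. Deviations of same-numbered samples correlated at -0.0076, -0.022 and -0.010, which cannot settle it, since samples from 1 source would show no pairing either. A replicate block left 6 members and 7 transcripts called. OMD, with 8 counts, cannot be read at this depth.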

Other observations

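The genes nearest to DCN over the 6 samples, among the 8051 tested genes that averaged 10 CPM or more, have a symbol and are not members, were TENM3, COL3A1, PI15, ENO3 and NUPR1, with root mean square differences of centred log2 CPM of 0.101, 0.103, 0.123, 0.139 and 0.150. COL3A1 stood at 8370, 8082 and 8444 CPM in GM samples and at 44727, 41715 and 31317 CPM in DM samples, and TENM3, a teneurin, at 45.3, 41.8 and 42.1 against 234, 223 and 138 CPM. In each of these 5 genes DM3 was the lowest DM sample, as in DCN, which choosing them by nearness to DCN favours. The 6 samples fall into 2 groups, which all these genes share. OGN lay closest among the members, at 0.364. This cannot be set against the 5 genes, which were picked as the nearest of 8051.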
